A study of Mus musculus with 816 samples.

Results

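This account follows 10 genes that encode receptors of some of the cytokines applied to microglia in the study: Il4ra and Il13ra1 (IL4 and IL13), Il10ra and Il10rb (IL10), Ifngr1 and Ifngr2 (IFNg), Ifnar1 and Ifnar2 (IFNa and IFNb), and Tnfrsf1a and Tnfrsf1b (TNFa). They were chosen by name, as known receptor genes of these ligands, and with earlier results of these data known. All 10 were present among the 45581 genes listed for the cultures and the 29858 listed for the mice. RNA of 784 cultures of primary microglia from neonatal mouse brain, a commercial preparation of 3 cell lots grown on 10 plates, was sequenced at its 3′ end after 98 combinations of stimulus and time (63 cultures at 4 h, 418 at 24 h and 303 at 72 h). Untreated cultures numbered 40 at 24 h and 25 at 72 h, and no untreated culture is labelled 4 h. RNA of CD11b-selected brain cells came from 32 C57BL/6 mice. Of the females of 2 months, 4 had received LPS at 2 mg/kg and 4 had received PBS, 4 h before. Of the males labelled naive, 11 were 2 months and 13 were 22 months old. The header of the mouse table differs from these labels: it lists a vehicle for all 32 mice, at a concentration of 0, with a duration of 2 weeks for 16 of them and 4 weeks for the other 16, and the latter are all males.

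Microglia read most of these cytokines through paired receptor chains. IL4 and IL13 share Il4ra, which pairs with Il13ra1 in the receptor that binds both ligands. Il10ra binds IL10 and is joined by Il10rb, a chain shared with other cytokines of the IL10 family. Ifngr1 and Ifngr2 form the receptor of IFNg, and Ifnar1 and Ifnar2 the common receptor of IFNa and IFNb. These chains carry no enzyme of their own and signal through JAK kinases and STAT factors. Tnfrsf1a has a death domain and is found on most cells, whereas Tnfrsf1b lacks that domain and is typical of immune cells. A transcript level says nothing of the receptor protein at the cell surface, which was not measured.

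Concentrations in the labels were 0.00005 ug/ul for IL4, IL13 and IL10, 0.0001 for IFNg and IFNb, 0.0008 for IFNa and 0.000004 for TNFa. LPS, which acts through TLR4, was given at 0.0001 ug/ul (LPS_hi) or 0.00001 ug/ul (LPS_lo). P3C, the TLR2 ligand Pam3CysSerLys4, was given at 0.001 ug/ul, and IC, the TLR3 ligand polyI:C, at 0.2 ug/ul. For mixtures the labels give only the concentration of the first agent. The values are CPM, counts of a gene scaled to a common total of mapped reads, and a change is the difference of group means of log2(CPM + 1) with its standard error from a limma fit over all genes. A gene was called changed at an adjusted p under 0.05 and a change of at least 1.5-fold. CPM are not divided by transcript length, so levels are compared within a gene and not between genes.

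The cultures held between 1.00 and 38.2 M reads (M for mega, median 4.67) and the mice between 2.36 and 7.78 M reads (median 4.08), and 107 cultures had under 2 M reads. Microglial markers (8 genes, among them Cx3cr1 and P2ry12) summed to between 832 and 15254 CPM in the cultures, with a median of 4376. Their median sum was 6389 CPM in untreated cultures at 24 h and 1372 under LPS_hi. Markers of neutrophils, monocytes and T cells had median sums of 1.3, 0.7 and 0 CPM in the cultures. Those of astrocytes, neurons and B cells had 3.5, 1.0 and 0.3 CPM. Sums were larger for endothelial cells (median 59.3, highest 484 CPM), oligodendrocytes (40.5 and 171 CPM) and fibroblasts (11.9 and 524 CPM). In mice the microglial sum was between 28492 and 62877 CPM. Replicate cultures are wells of commercial cells, so the p-values below measure the spread between wells. The 72 h plates carried a single cell lot, while most untreated wells at 24 h came from others.

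On the GRCm38 assembly (GENCODE annotation), Ifnar2 (chr16:91372783-91405589), Il10rb (chr16:91406164-91425834), Ifnar1 (chr16:91485238-91507441) and Ifngr2 (chr16:91547072-91565623) are neighbours on the plus strand of chromosome 16. The other 6 lie apart: Il4ra at chr7:125552120-125579474, Il13ra1 at chrX:36112110-36171259, Ifngr1 at chr10:19591949-19610229 and Tnfrsf1a at chr6:125349362-125362484 on the plus strand, and Il10ra at chr9:45253837-45269149 and Tnfrsf1b at chr4:145213463-145246870 on the minus strand. A read-through gene, Gm21970, spans Ifnar2 and Il10rb, and it was listed at 0 in 513 of 784 cultures and reached 1.42 CPM at most. Il4ra is overlapped by the antisense gene Gm44876, and Il10ra by the pseudogene Gm20612 and by Mir7086, so reads of these partners cannot be told apart where the counting ignored strand.

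Il4ra and Tnfrsf1b moved most across the panel, and the sequence at their starts is therefore shown. The window runs from 250 bases before to 50 bases after the RefSeq start (GRCm38.p6, read 5′ to 3′ on the gene's strand), chr7:125552021-125552320 for Il4ra and chr4:145246821-145247120 on the minus strand for Tnfrsf1b. Capitals mark every match, on either strand, to GGG and CC with 5 bases between them (the NF-kB type), TTC and GAA with 3 bases between them (the GAS type bound by STAT factors) or with 4 (the STAT6 type), GAAA and GAAA with 2 bases between them (the interferon response type), or TGACGTCA (the CRE).
Il4ra: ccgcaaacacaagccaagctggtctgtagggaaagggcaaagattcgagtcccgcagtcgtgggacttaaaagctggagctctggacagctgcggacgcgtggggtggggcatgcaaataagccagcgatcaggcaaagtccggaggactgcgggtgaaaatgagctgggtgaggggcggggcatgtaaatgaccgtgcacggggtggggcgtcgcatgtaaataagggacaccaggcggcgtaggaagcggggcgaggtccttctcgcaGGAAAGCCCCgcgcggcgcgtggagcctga
Tnfrsf1b: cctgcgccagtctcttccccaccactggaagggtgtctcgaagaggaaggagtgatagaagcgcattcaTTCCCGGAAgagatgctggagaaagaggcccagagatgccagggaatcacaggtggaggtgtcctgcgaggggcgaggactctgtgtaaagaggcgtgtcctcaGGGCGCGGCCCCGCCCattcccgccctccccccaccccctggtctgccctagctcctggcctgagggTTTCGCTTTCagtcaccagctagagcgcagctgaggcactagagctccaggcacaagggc
Il4ra held 1 match, of the NF-kB type, 21 bases after the start. Tnfrsf1b held 3 overlapping NF-kB type matches from 77 bases before the start, a GAS type match 181 bases before it and an interferon response type match 10 bases before it. Promoters of 8 of the 10 genes were found in a table of 32851 promoters. In that table the NF-kB type was held by 50.8%, the GAS type by 8.30%, the STAT6 type by 6.95%, the interferon response type by 3.44% and the CRE by 1.79%. The NF-kB type matches of the 8 genes are thus at letters that about every other promoter holds. Among these 8 genes, the GAS type was also matched in Ifnar1, Ifnar2 and Tnfrsf1a, and the STAT6 type in Ifngr2. A match is a run of letters and says nothing of binding.

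In untreated cultures at 24 h every chain was read. The lowest, median and highest values were 3.9, 25.2 and 54.3 CPM for Il4ra and 0, 3.3 and 15.6 CPM for Il13ra1. They were 16.5, 40.6 and 77.0 CPM for Il10ra and 104, 191 and 286 CPM for Il10rb. For the IFNg receptor they were 14.7, 44.2 and 86.4 CPM (Ifngr1) and 64.5, 185 and 353 CPM (Ifngr2). Plates differed among untreated wells: the median of the 6 plates ran from 12.2 to 47.5 CPM for Il4ra and from 32.3 to 80.1 CPM for Ifngr1, but from 142 to 230 CPM for Il10rb. For the IFNa and IFNb receptor the values were 6.0, 21 and 67.4 CPM (Ifnar1) and 83.3, 169 and 246 CPM (Ifnar2). For the TNFa receptors they were 10.1, 57.7 and 93.4 CPM (Tnfrsf1a) and 95.5, 329 and 507 CPM (Tnfrsf1b). Il13ra1 therefore stood near the pseudocount in most wells, and its folds are understated by the pseudocount.

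At 72 h the untreated medians were 30.3 CPM for Il4ra, 4.7 for Il13ra1, 48.9 for Il10ra, 198 for Il10rb, 65.3 for Ifngr1, 162 for Ifngr2, 13.4 for Ifnar1, 202 for Ifnar2, 71.7 for Tnfrsf1a and 239 for Tnfrsf1b. Between untreated wells at 72 h and at 24 h, 1 of the 10 was called, where 24.3% of all genes tested were. Ifnar1 was lower at 72 h, by -0.82 ± 0.25 on the log2 scale (adjusted p = 0.00864). Within the lot used at 72 h the Ifnar1 difference was -0.35 with an adjusted p of 0.75, so lot and time cannot be told apart there.

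Against untreated wells of the same time, 76 of 440 pairs of gene and condition were called at 24 h (37 higher, 39 lower), or 17.3%, where 9.87% of all pairs of gene and condition were. At 72 h, 48 of 420 pairs were called (28 higher, 20 lower), or 11.4% against 5.5% of all pairs. At 4 h, against the untreated wells of 24 h, it was 21 of 90 pairs (11 higher, 10 lower), or 23.3% against 19.4%. The calls fell in 21 of 44 conditions at 24 h, 23 of 42 at 72 h and 7 of 9 at 4 h. All conditions of a time share their untreated wells, so these pairs are not independent. The shares over all pairs include genes over 5 CPM in as few as 4 cultures. A culture held a median of 8517.5 genes over 5 CPM, where 14433 genes were tested at 24 h. The members were not compared with genes of like level, so the gap between the shares does not show that receptors respond more than such genes.

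The direction differed by gene. At 24 h Il4ra was higher in 12 conditions and lower in 4, and Tnfrsf1b was higher in 11 and lower in 2. Ifngr1 was lower in 13, Il10rb in 8 and Ifnar1 in 7, and none of these 3 was higher in any. Il10ra was higher in 6 and lower in 3, Tnfrsf1a higher in 3, Il13ra1 higher in 3 and lower in 1, Ifngr2 higher in 2 and Ifnar2 lower in 1. At 72 h Il4ra was higher in 13 conditions and lower in 0, Tnfrsf1b higher in 7 and lower in 3, Ifngr1 lower in 7 and Il10rb lower in 8. Most of the 21 conditions with a call at 24 h contained LPS, another TLR ligand or an interferon. LPS alone and LPS with a further agent count as separate conditions, so the counts per gene partly repeat the same stimulus. Calls over all genes also leaned by condition. At 24 h, 3579 were lower and 1423 higher under LPS_hi, and 4222 and 877 under P3C, but 311 and 777 under IL4.

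**Figure D1:**
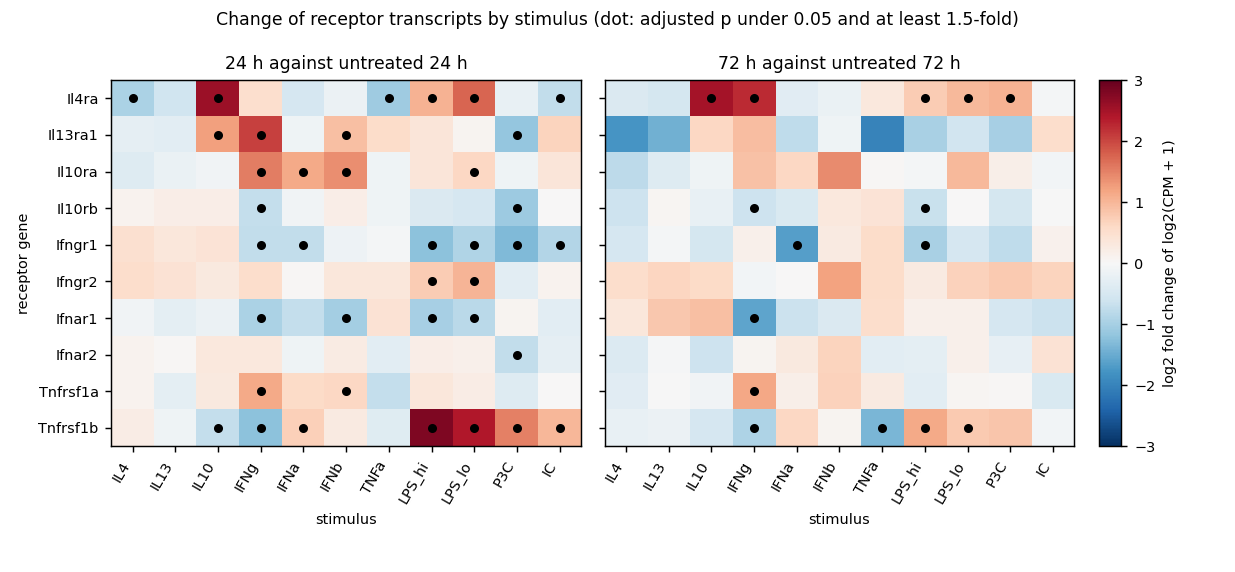
Log2 fold changes (colour, difference of means of log2(CPM + 1)) of the 10 receptor genes (rows) under 7 cytokines and 4 TLR ligands (columns) at 24 h and at 72 h, each against untreated cultures of that time. Dots mark adjusted p under 0.05 and at least 1.5-fold, and the deepest reds are Il4ra under IL10 (2.56 at 24 h) and Tnfrsf1b under LPS_hi (2.80 at 24 h).

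The first question was whether a cytokine moved the transcripts of its own receptor. At 24 h, 3 of 14 pairs of ligand and own chain were called, all lower, where 11.4% of all genes were called over the 7 single cytokines. Il4ra under IL4 was 7.5, 12.7 and 17.5 CPM (lowest, median and highest of 11 cultures). It stood below the untreated median of 25.2 CPM in every one of those cultures, with ranges that overlapped. The change was -0.95 ± 0.22, or 1.93-fold lower (adjusted p = 0.000871), and -0.66 with culture plate in the model (adjusted p = 0.012). IL4 changed 7.54% of all genes.

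Ifnar1 under IFNb was 4.4, 10.5 and 19.8 CPM in 10 cultures, a change of -1.03 ± 0.27 or 2.04-fold lower (adjusted p = 0.00204). All 10 were below the untreated median of 21 CPM. Ifngr1 under IFNg was 7.4, 32.1 and 39.1 CPM in 9 cultures, a change of -0.74 ± 0.26 or 1.67-fold lower (adjusted p = 0.0269). Here the ranges overlapped, and without the cultures under 2 M reads the change was -0.53 with an adjusted p of 0.16, while with plate in the model it was -1.06 with an adjusted p of 3.1e-06. IFNb changed 17.2% of all genes and IFNg 17.8%.

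The other 11 pairs were not called. Under IL13, Il4ra was 7.4, 15.4 and 25.6 CPM (-0.59 ± 0.24, adjusted p = 0.155, where 3.53% of genes were called). IL13 and IL4 were not shown to differ in this: their direct difference for Il4ra was 0.37 with a 95% interval from -0.20 to 0.93, and 0 of the 10 genes were called between them, where 0.0901% of all genes were. Il10ra under IL10 changed by -0.11 (95% interval -0.55 to 0.32) and Il10rb by 0.19 (-0.09 to 0.48). Under IFNa, Ifnar1 was 6.2, 13.4 and 25.9 CPM (-0.70 ± 0.30, adjusted p = 0.0661) and Ifnar2 changed by -0.12. The direct difference of IFNb and IFNa for Ifnar1 was -0.33 (-1.04 to 0.39), and 0 of 10 genes were called between these ligands, where 1.84% of all genes were. Tnfrsf1a under TNFa was 8.0, 36.3 and 72.5 CPM (-0.70 ± 0.25, adjusted p = 0.0543).

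At 72 h, 1 of 14 such pairs was called, where 6.86% of all genes were. Tnfrsf1b under TNFa was 432.8, 12.1 and 184.8 CPM in the 3 cultures, a change of -1.37 ± 0.41 (adjusted p = 0.00702). The call rested on the culture at 12.1 CPM: without it the change was 0.11 with an adjusted p of 0.90. The same culture, of 1.98 M reads, held 156 CPM of Il4ra, where the other two held 20.2 and 17.8 CPM. TNFa at 72 h changed 23.1% of all genes. Il4ra under IL4 at 72 h was 15.8, 27.8 and 26.1 CPM and was not called (-0.44, adjusted p = 0.876).

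IL10 raised the receptor chain of IL4 and IL13. Il4ra was 87.5, 150.3 and 232.8 CPM in 9 cultures at 24 h, all above the highest of the 40 untreated cultures (54.3 CPM). The change was 2.56 ± 0.24, or 5.90-fold (adjusted p = 2.66e-20), and 2.98 with plate in the model. At 72 h Il4ra was 84.0, 185.2 and 360.4 CPM in 6 cultures against 5.8, 30.3 and 90.8 CPM in untreated ones, a change of 2.49 ± 0.35 or 5.63-fold (adjusted p = 2.82e-08). IL10 called few genes as a whole, 1.85% at 24 h and 1.18% at 72 h. Beside Il4ra it changed 2 further members at 24 h and none at 72 h. Il13ra1 was higher (4.8, 8.2 and 18.3 CPM, 1.24 ± 0.36, adjusted p = 0.0418), though with plate in the model the adjusted p was 0.098. Tnfrsf1b was lower (141, 174 and 242 CPM, -0.71 ± 0.21, adjusted p = 0.0441), or -0.57 and below 1.5-fold with library pool in the model.

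**Figure D2:**
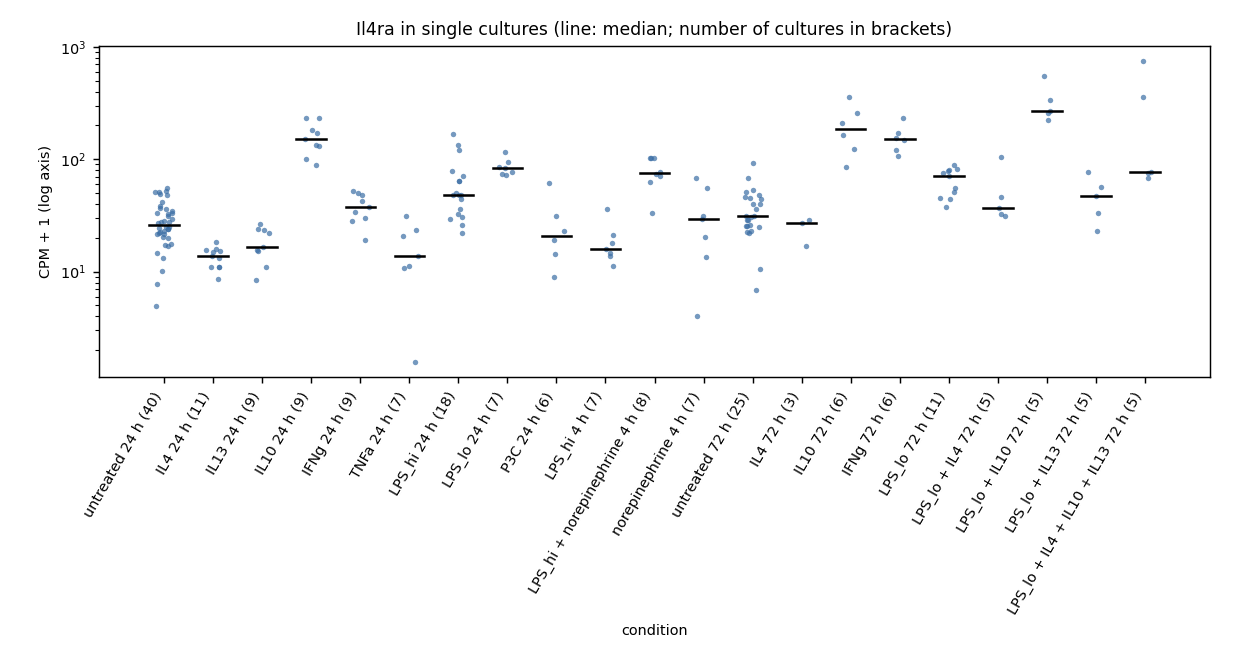
Il4ra in single cultures (points, CPM + 1 on a log axis) by condition, with the median as a line and the number of cultures in brackets. All 9 IL10 cultures at 24 h lie above the 40 untreated ones, and the 11 IL4 cultures lie between 7.5 and 17.5 CPM.

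IFNg moved 7 of the 10 members at 24 h, 3 higher and 4 lower, where 17.8% of all genes were called. The microglial markers summed to a median of 3026 CPM in these cultures, against 6389 CPM in untreated ones, and the part of this shift in the receptor values was not tested. Il10ra, the ligand-binding chain for IL10, was 84.8, 115.9 and 152.9 CPM in 9 cultures, all above the highest untreated culture of 77.0 CPM (1.54 ± 0.22, 2.90-fold, adjusted p = 5.67e-10). Il13ra1 was 10.7, 16.5 and 33.7 CPM (2.05 ± 0.36, 4.14-fold, adjusted p = 8.2e-07). Tnfrsf1a was 90.0, 115.9 and 139.3 CPM (1.14 ± 0.22, 2.20-fold, adjusted p = 9.09e-06). The 2 TNFa receptors moved apart: Tnfrsf1b was 91.8, 115.2 and 187.7 CPM, a change of -1.24 ± 0.21 or 2.35-fold lower (adjusted p = 2.41e-07). Il10rb was 60.1, 117 and 146 CPM (-0.70 ± 0.15, adjusted p = 3.34e-05), so the chains of the IL10 receptor also moved apart. Ifnar1 was lower by -0.94 (adjusted p = 0.00871), and Ifngr1 is given above.

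At 72 h IFNg left 5 members called, where 9.76% of all genes were. Il10ra was not among them. A single culture held 2.02 CPM of Il10ra and the others held 100 to 174 CPM, and the fit without that culture was not run. Il4ra was 104.9, 150.4 and 230.7 CPM in 6 cultures, all above the highest of 25 untreated cultures (90.8 CPM), a change of 2.24 ± 0.35 or 4.71-fold (adjusted p = 8.82e-08). At 24 h the same ligand had left Il4ra at 18.2, 36.7 and 51.0 CPM (0.51 ± 0.24, adjusted p = 0.122). The difference between the effects at the 2 times, 1.72, had an adjusted p of 0.00284. Tnfrsf1a stayed higher (106, 163 and 223 CPM, 1.15 ± 0.29, adjusted p = 0.00309), and Il10rb (-0.61, adjusted p = 0.0148) and Tnfrsf1b (-0.93, adjusted p = 0.0299) stayed lower, at adjusted p = 0.062 and 0.059 with median-ratio scaling. Ifnar1, at 0, 6.5 and 9.3 CPM, was lower by -1.59 (adjusted p = 0.0449), a call that was lost with plate in the model.

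IFNa and IFNb raised Il10ra, as IFNg did. At 24 h it was 45.8, 90.2 and 154 CPM under IFNa (1.15 ± 0.23, 2.21-fold, adjusted p = 1.89e-05) and 56.0, 120 and 147 CPM under IFNb (1.4 ± 0.21, 2.64-fold, adjusted p = 4.46e-09). IFNa called 3 members, where 24.5% of all genes were called. Besides Il10ra these were Tnfrsf1b, higher at 400, 506 and 590 CPM (0.72 ± 0.22, adjusted p = 0.00737), and Ifngr1, lower at 11.8, 26.2 and 40.3 CPM (-0.73 ± 0.27, adjusted p = 0.0323). IFNb called Il13ra1 (0.91, adjusted p = 0.0483) and Tnfrsf1a (0.63, adjusted p = 0.0202) as higher, and both calls were lost without the cultures under 2 M reads (adjusted p = 0.20 and 0.15). With median-ratio scaling Ifngr1 under IFNa was -0.57 (adjusted p = 0.062), and with plate in the model Tnfrsf1b under IFNa was 0.53, below 1.5-fold. At 72 h IFNa left Ifngr1 at 1.8, 32.7 and 46.6 CPM in 7 cultures (-1.65 ± 0.28, adjusted p = 1.76e-06), where 5.95% of genes were called. Set against IFNb directly at 24 h, IFNg had lower Il10rb (-0.91, adjusted p = 4.53e-05) and lower Tnfrsf1b (-1.51, adjusted p = 1.29e-06), 2 of 10 members where 9.42% of all genes were called.

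TNFa at 24 h called 1 member, where 7.49% of all genes were. Il4ra was 0.57, 12.8 and 30.1 CPM in 7 cultures (-1.07, adjusted p = 0.00204). The culture at 0.57 CPM held 1.75 M reads, and without the cultures under 2 M reads the change was -0.75 with an adjusted p of 0.12. When IFNg was added to TNFa for 72 h, Il13ra1 was 9.5, 12.5 and 43.6 CPM in 8 cultures against 0, 1.0 and 0 CPM in the 3 TNFa cultures, a gap of 3.69 on the log2 scale that depends on the pseudocount (adjusted p = 0.00149). Il10rb was lower by -1.15 (adjusted p = 0.00055) and Tnfrsf1b higher by 1.27 (adjusted p = 0.0282), 3 members where 22% of genes were called, and these contrasts rest on the 3 TNFa cultures described above. Without the cultures under 2 M reads the Il10rb difference was -0.93 (adjusted p = 0.12) and that of Tnfrsf1b 0.40 (adjusted p = 0.76).

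GM-CSF, a growth factor of myeloid cells whose receptor is not among the members, was tested as well. At 24 h it left Il4ra at 34.7, 48.4 and 83.7 CPM (1.06 ± 0.25, 2.08-fold, adjusted p = 0.00149), Il10ra at 11, 18.3 and 30.6 CPM (-1.11 ± 0.23, 2.15-fold lower, adjusted p = 0.000222) and Ifngr1 lower by -0.83 (adjusted p = 0.0325), where 8.32% of all genes were called. With library pool in the model the Il4ra change was 0.53, below 1.5-fold, and without the cultures under 2 M reads that of Ifngr1 had an adjusted p of 0.19. At 72 h Il4ra stayed higher at 63.3, 81.1 and 133 CPM (1.47, adjusted p = 0.000946), the only member called, where 3.38% of genes were.

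The TLR ligands and LPS gave 31 calls in 90 pairs of gene and condition over the 3 times, 17 higher and 14 lower, where 22% of all pairs of gene and condition were called. Tnfrsf1b changed most. At 24 h it was 958, 2363 and 3836 CPM in 18 LPS_hi cultures, all above the highest untreated culture of 507 CPM (2.80 ± 0.16, 6.97-fold, adjusted p = 4.79e-48). In 7 LPS_lo cultures it was 874, 2196 and 2677 CPM (2.41 ± 0.23, 5.30-fold, adjusted p = 2.79e-20), in 6 P3C cultures 394, 946 and 1684 CPM (1.5 ± 0.25, 2.83-fold, adjusted p = 6.07e-08), and in 8 IC cultures 228, 566 and 1276 CPM (1.00 ± 0.22, 1.99-fold, adjusted p = 0.000117). LPS_hi exceeded P3C by 1.30 (adjusted p = 4.4e-05). Both doses of LPS left it out of the untreated range, while P3C and IC cultures overlapped with it.

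Ifngr1 moved the other way under all 4 TLR ligands at 24 h. It was 6.0, 19.9 and 33.5 CPM under LPS_hi (-1.22 ± 0.20, 2.34-fold lower, adjusted p = 1.32e-08) and 13.8, 23.2 and 32.9 CPM under LPS_lo (-0.90 ± 0.29, adjusted p = 0.00888). Under P3C it was 11.4, 15.6 and 24.3 CPM (-1.33 ± 0.30, adjusted p = 0.000126) and under IC 9.1, 22.9 and 44.5 CPM (-0.87 ± 0.27, adjusted p = 0.00907). Its partner Ifngr2 was higher under LPS_hi (157, 321 and 444 CPM, 0.76 ± 0.19, adjusted p = 0.000279) and LPS_lo (223, 425 and 484 CPM, 1.03 ± 0.27, adjusted p = 0.00115). The 2 chains of the IFNg receptor thus moved apart under LPS. The median change of all genes was -0.21 under LPS_hi, -0.27 under LPS_lo, -0.40 under P3C and -0.19 under IC, and the values above are not corrected for it. With median-ratio scaling Ifngr1 under IC was -0.62 (adjusted p = 0.051), and with plate in the model Ifngr2 under LPS_hi was 0.51, below 1.5-fold. The median sum of the microglial markers was lower as well, at 1372 CPM under LPS_hi, 1451 under LPS_lo, 3223 under P3C and 3079 under IC, and its part in these values was not tested.

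**Figure D3:**
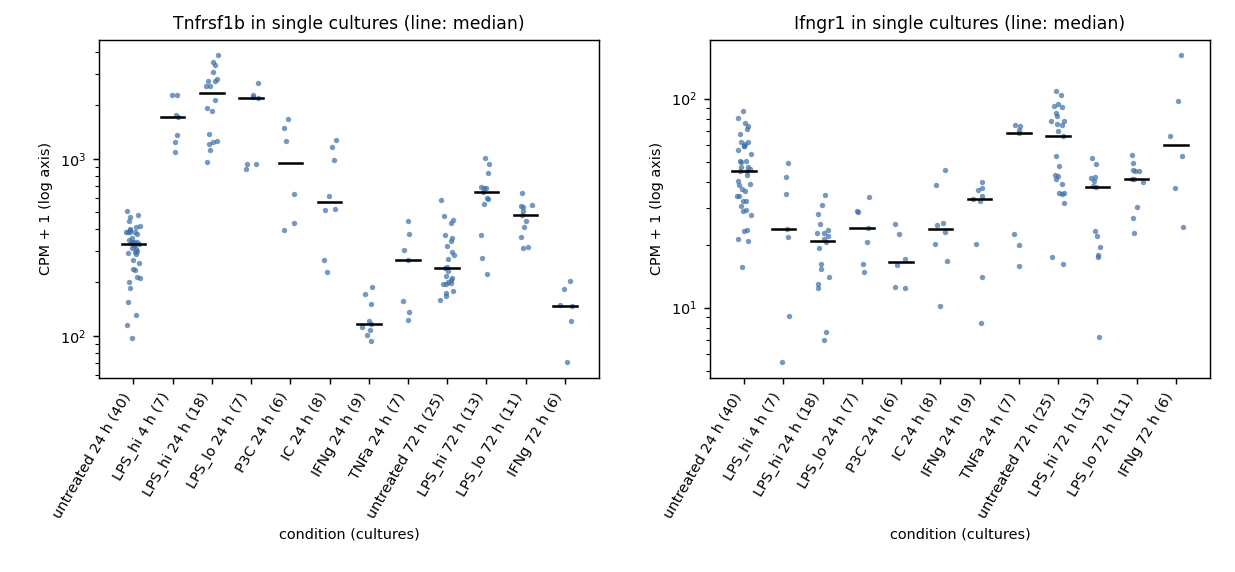
Tnfrsf1b (left) and Ifngr1 (right) in single cultures (points, CPM + 1 on a log axis) by condition, with the median as a line. All 18 LPS_hi cultures at 24 h lie above the untreated cultures for Tnfrsf1b, whereas for Ifngr1 the LPS_hi cultures lie between 6.0 and 33.5 CPM and overlap with the lower untreated ones.

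Il4ra was higher at 24 h under both doses of LPS and not under P3C or IC. It was 20.9, 47.2 and 166.9 CPM under LPS_hi (1.04 ± 0.18, 2.06-fold, adjusted p = 1.62e-07) and 72.0, 83.4 and 115.9 CPM under LPS_lo (1.74 ± 0.26, 3.34-fold, adjusted p = 2.98e-09), and the direct difference between the doses was -0.70 with an adjusted p of 0.337. Between the 2 doses 0 of 10 members were called, where 0.561% of genes were. Under P3C it was 8.0, 19.9 and 60.2 CPM (-0.23, adjusted p = 0.561), and LPS_hi exceeded P3C by 1.28 (adjusted p = 0.000502). Under IC it was 8.1, 15.1 and 24.3 CPM (-0.74, adjusted p = 0.0177), but -0.36 with plate in the model (adjusted p = 0.26).

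The other chains changed less. LPS_hi and LPS_lo lowered Ifnar1 (-0.99, adjusted p = 4.49e-05, and -0.81, adjusted p = 0.0395), the LPS_lo value being -0.38 with plate in the model (adjusted p = 0.34). LPS_lo raised Il10ra to 44.1, 56.9 and 88.2 CPM (0.61, adjusted p = 0.0455, and 0.090 with no minimum on low values). P3C lowered Il10rb to 25.7, 107 and 134 CPM (-1.09 ± 0.17, adjusted p = 1.43e-08), Ifnar2 to 80.2, 102 and 111 CPM (-0.73, adjusted p = 0.000224) and Il13ra1 (-1.17, adjusted p = 0.0224). The Ifnar2 change under P3C was -0.20 with library pool in the model (adjusted p = 0.31), and that of Il13ra1 was -0.62 with plate (adjusted p = 0.27). Called members numbered 5 under LPS_hi where 34.7% of all genes were, 6 under LPS_lo where 27.8% were, 5 under P3C where 35.3% were, and 3 under IC where 20.4% were. LPS_hi and P3C differed directly in 7 members, where 20.4% of all genes did, and with library pool in the model only the Il4ra and Tnfrsf1b differences remained called.

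By 72 h fewer members were called under the same ligands: 4 under LPS_hi (18.3% of all genes), 2 under LPS_lo (8.23%), 1 under P3C (6.91%) and 0 under IC (4.67%). Tnfrsf1b under LPS_hi was 221, 650 and 1012 CPM (1.13 ± 0.23, adjusted p = 2.63e-05) and under LPS_lo 312, 479 and 636 CPM (0.78). Its effect at 72 h was smaller than at 24 h by -1.67 for LPS_hi (adjusted p = 2.68e-07) and by -1.62 for LPS_lo (adjusted p = 0.000243). Il4ra was 28, 58 and 107 CPM under LPS_hi (0.77, adjusted p = 0.0253) and 36.7, 70.6 and 87.1 CPM under LPS_lo (0.96, adjusted p = 0.0112, and 0.052 without the cultures under 2 M reads). Under P3C it was 51.0, 57.9 and 103 CPM in 6 cultures (1.04, adjusted p = 0.0458), and 0.90 with plate in the model (adjusted p = 0.11). Ifngr1 (-0.98) and Il10rb (-0.66) remained lower under LPS_hi, the latter at -0.57 and below 1.5-fold with plate in the model. Of 110 pairs of gene and stimulus compared between the times, the effect differed in 7, a share near the 5.17% of all such pairs.

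At 4 h LPS_hi could be set only against untreated wells of 24 h, so time and stimulus cannot be told apart, and 48.2% of all genes were called with a median change of -0.65. Il10ra was 114, 147 and 171 CPM in 7 cultures, all above the untreated range, a change of 1.85 ± 0.26 or 3.61-fold (adjusted p = 2.45e-09). Tnfrsf1b was 1089, 1719 and 2305 CPM (2.45 ± 0.21, adjusted p = 2.44e-19), and Ifngr1 was 4.5, 22.8 and 48.4 CPM (-1.01 ± 0.27, adjusted p = 0.00109), or -0.57 with median-ratio scaling (adjusted p = 0.072). Il10rb was lower by -0.61 and Tnfrsf1a higher by 0.62, but with plate in the model these calls were lost (adjusted p = 0.13 and 0.31).

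At 4 h, norepinephrine with LPS_hi left Il4ra higher than LPS_hi alone. In 8 cultures with LPS_hi and norepinephrine it was 32.6, 74.9 and 101.9 CPM, against 10.2, 14.8 and 34.9 CPM in the 7 with LPS_hi alone. The lowest of the 8 lay below the highest of the 7, and the difference was 2.09 ± 0.35 or 4.27-fold (adjusted p = 2.06e-05), and 2.09 again with plate in the model. Norepinephrine alone at 4 h left it at 3.1, 28.2 and 66.7 CPM, -0.13 from untreated cultures of 24 h, and whether its effect differed with and without LPS was not tested. With ATP or nicotine in its place, Il4ra stood at 14.8, 21 and 26.4 CPM and 14.8, 17.9 and 37.4 CPM. The contrast called 2.41% of all genes and no other member. At 24 h, adding resveratrol to LPS_lo left Il4ra lower than LPS_lo alone (19.6, 40.4 and 70.3 CPM, -1.10, adjusted p = 0.0349). In that contrast 560 of 14433 genes were called. The contrasts with LPS alone in this paragraph were chosen after values were seen, so their p-values are descriptive.

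Additions to LPS_lo for 72 h (IL4, IL10, IL13, these together, IFNg, TGFb and the TLR3 ligand IC) gave 6 calls in 70 pairs, where 1.41% of all pairs of gene and addition were called. With IL10, Il4ra rose further, to 223.4, 258.8, 268.9, 550.1 and 335.5 CPM, all above the 36.7 to 87.1 CPM of the 11 cultures with LPS_lo alone (2.32 ± 0.41, 5.01-fold, adjusted p = 0.000102). In the same cultures Il10ra was 39.8, 28.3, 46.0, 4.4 and 6.0 CPM against 50.8 to 114.6 CPM (-2.11 ± 0.51, adjusted p = 0.00957). Replicates 1 to 3 and 4 and 5 lay on different plates, and the Il10ra value rested on the last 2: with library pool in the model it was -1.19 with an adjusted p of 0.63, and without replicate 4 or 5 it was -1.67 (adjusted p = 0.27) or -1.77 (adjusted p = 0.16). IL10 in this setting called 0.925% of all genes.

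With IL4, IL10 and IL13 together, Il4ra was 76.8, 66.8, 74.6, 356.0 and 755.4 CPM (1.37, adjusted p = 0.0338). Its first 3 values lay within the range of LPS_lo alone, and without the fourth or the fifth culture the change was 1.08 or 0.81 and not called. Il10ra was 22.0, 22.6, 29.1, 5.5 and 45.3 CPM (-1.87, adjusted p = 0.0124; with plate in the model -1.55, adjusted p = 0.055) and Tnfrsf1b 307.8, 279.8, 182.0, 158.3 and 70.0 CPM (-1.34, adjusted p = 0.00981; with library pool -0.96, adjusted p = 0.11). The mixture called 3.72% of genes, and against IL13, both given without LPS, it called 0 of 10 members where 2.14% of genes were called. That does not show equal levels: the difference for Il4ra was 1.16 with a 95% interval from 0.29 to 2.03 (adjusted p = 0.173). IFNg added to LPS_lo lowered Il10rb to 57.5, 135 and 157 CPM from 130, 214 and 291 CPM (-0.83 ± 0.19, adjusted p = 0.00278), where 1.83% of genes were called. IL4 or IL13 alone left Il4ra at -0.46 and -0.51, neither called.

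Outside cytokines and LPS few agents moved a member. MPP, a toxic pyridinium ion, left Ifngr1 at 6.9, 13.5 and 20.2 CPM and Ifngr2 at 18, 40.5 and 69.6 CPM in 6 cultures at 72 h (-2.01, adjusted p = 7.2e-08, and -1.64, adjusted p = 0.00193), with both chains lower, though Ifngr2 had an adjusted p of 0.15 with library pool in the model. Il10rb was lower there too (-0.68, adjusted p = 0.00896), but -0.36 with plate in the model (adjusted p = 0.34), and 5.02% of all genes were called. At 24 h MPP called Il4ra (-0.92, adjusted p = 0.00493, and 0.090 with plate in the model) and Il10ra (-0.66, adjusted p = 0.0397, and 0.18 without the cultures under 2 M reads) as lower, where 12.4% of genes were called. The protein s100B lowered Il10ra at 24 h (-0.80, adjusted p = 0.0163), where 3.87% were. Valproic acid at 24 h raised Il4ra (0.97, adjusted p = 0.00798) and Tnfrsf1a (0.75, adjusted p = 0.0347), and resveratrol raised Il4ra (0.87, adjusted p = 0.00972). GABA at 72 h lowered Tnfrsf1b (70.7, 132 and 205 CPM, -1.10, adjusted p = 0.00442). With library pool in the model the values for valproic acid were 0.49 and 0.34 (each adjusted p = 0.54) and that for GABA was -0.33 (adjusted p = 0.81). All genes called were 15.2% under valproic acid, 1.93% under resveratrol and 4.64% under GABA.

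Conditions were ordered by the mean of log2(CPM + 1), and the values below are means and SDs in CPM. At 24 h, 43 or 44 of the 44 neighbouring pairs per gene lay closer than the larger of their SDs on the log2 scale. At 72 h it was 40 to 42 of 42. Sorting places like means side by side, so this does not test whether conditions differ. At 24 h the order began with IL10 for Il4ra (157 ± 51.9 CPM, SD, n = 9), with IFNg for Il13ra1 (17.5 ± 7.0), Il10ra (116 ± 23.7) and Tnfrsf1a (118 ± 21.4, each n = 9), and with LPS_hi for Tnfrsf1b (2248 ± 912, n = 18). It ended with P3C for Il10rb (96.6 ± 39.5), Ifnar2 (97.7 ± 12.4) and Il13ra1 (1.3 ± 1.7, each n = 6), with IFNg for Tnfrsf1b (128 ± 33.6) and with GM-CSF for Il10ra (18.5 ± 7.1, n = 8).

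Over 97 conditions, neither the chains of one receptor nor the separate TNFa receptors Tnfrsf1a and Tnfrsf1b followed each other closely. Il13ra1 stood near the pseudocount in most untreated wells, so noise may hold down any r with it. Pearson's r of the condition means was 0.14 for Il4ra with Il13ra1, -0.25 for Il10ra with Il10rb, 0.12 for Ifngr1 with Ifngr2, -0.37 for Ifnar1 with Ifnar2 and 0.03 for Tnfrsf1a with Tnfrsf1b. Across receptors, the highest was 0.73 for Ifngr1 with Il10rb and the lowest -0.64 for Ifngr1 with Tnfrsf1b. Among 9389 genes, those most like Tnfrsf1b were Il1a (0.89), Cflar (0.89) and Traf1 (0.88), and those like Ifngr1 included Tyrobp (0.79) and 4632428N05Rik (0.78). Il10ra was followed by Irgm2 (0.74), Icam1 (0.73) and Dtx3l (0.72), and Il10rb by Cd84 (0.81), Rnf150 (0.78) and Hacd4 (0.77). The highest for Il4ra were Serp1 (0.61), Pirb (0.60) and Ctsh (0.59), for Ifngr2 Lrrc58 (0.73), for Ifnar2 Ctss (0.69), for Tnfrsf1a Arpc5 (0.61) and for Il13ra1 Slc23a2 (0.56). These are descriptions over conditions that share plates, pools and depth.

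Of 17 further genes of these pathways (JAK kinases, STAT factors and their partner Irf9, the inhibitors Socs1, Socs3 and Usp18, adaptors of the TNFa receptors, and the receptor chains Il2rg and Il13ra2), 16 were tested in the cultures. At 24 h IFNg called 8 of them as higher and 0 as lower, IFNa 10 and 0, IFNb 9 and 1, and LPS_hi 10 and 0. Of all genes, 17.8%, 24.5%, 17.2% and 34.7% were called in that order. Their median change was 0.88 under IFNg, 1.14 under IFNa, 0.79 under IFNb and 1.15 under LPS_hi, beside -0.05, -0.26, -0.14 and -0.21 for all genes. IL10 called 2 as higher, the feedback inhibitor Socs3 (4.10) and the factor Stat3 (1.45), and 1 as lower, Usp18 (-1.01). IL4 called Socs1 as higher (3.11) and Socs3 (-1.26) and Stat2 (-1.20) as lower. IL10 called 1.85% of all genes and IL4 7.54%. Of 9 other cytokine receptors, 8 were tested, and LPS_hi called 1 higher and 4 lower, Tgfbr1 (-2.30), Il6st (-2.07), Csf1r (-2.02) and Tgfbr2 (-1.65). Of all 14433 genes, LPS_hi called 1423 higher and 3579 lower. IL10 called Csf2rb alone, as higher (1.30).

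In mice, 4 h after LPS, Il4ra was the 1 member of 10 called, where 18.1% of all genes were. It was 74.2, 85.0, 116.1 and 79.4 CPM in the mice given PBS and 377.9, 380.6, 432.8 and 383.9 CPM in those given LPS, with no overlap. The change was 2.16 ± 0.15 or 4.46-fold (adjusted p = 5.97e-08). Il10rb was lower at 106.8, 95.9, 89.9 and 108.3 CPM against 142.3, 132.5, 141.7 and 139.5 CPM (-0.47 ± 0.12, adjusted p = 0.0138), and Ifngr2 was higher at 517.6, 545.4, 585.9 and 467.6 CPM against 422.1, 360.5, 442.6 and 391.1 CPM (0.39 ± 0.12, adjusted p = 0.0359). Both changes were under 1.5-fold, without overlap between the groups.

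The other 7 members did not pass. Tnfrsf1b, which stood above the untreated range in LPS cultures, was 367.2, 337.4, 408.2 and 324.7 CPM after LPS and 457.2, 410.7, 434.2 and 406.4 CPM after PBS (-0.25 ± 0.12, adjusted p = 0.146). Ifngr1 changed by -0.25 (adjusted p = 0.173), Il10ra by 0.32 (adjusted p = 0.0755) and Tnfrsf1a by 0.35 (adjusted p = 0.082). Il4ra, higher in the mice at 4 h, stood last of the 9 conditions in the 7 LPS_hi cultures at 4 h (median 14.8 CPM). It was not called there. Dose, route and age differ between mice and cultures, and no test compared them. Oligodendrocyte markers summed to 443 to 1384 CPM after PBS and 272 to 907 CPM after LPS. Astrocyte markers summed to 203 to 793 and 123 to 784 CPM, and endothelial markers to 59.6 to 76.6 and 52.8 to 57.6 CPM. Neutrophil markers summed to 64.2 to 130 CPM after PBS and 142 to 257 CPM after LPS, monocyte markers to 20.9 to 50.5 and 62.4 to 126 CPM, and microglial markers to 38776 to 49561 and 42956 to 46534 CPM. The part of these cells in the receptor values was not tested, and in bulk samples fewer cells of a type and less RNA per cell cannot be told apart. Of the 17 further pathway genes, 10 of 15 tested were higher and 0 lower, where 18.1% of all genes were called. They were led by Socs3 (4.70), Il2rg (2.41), Socs1 (2.17) and Stat3 (1.79).

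**Figure D4:**
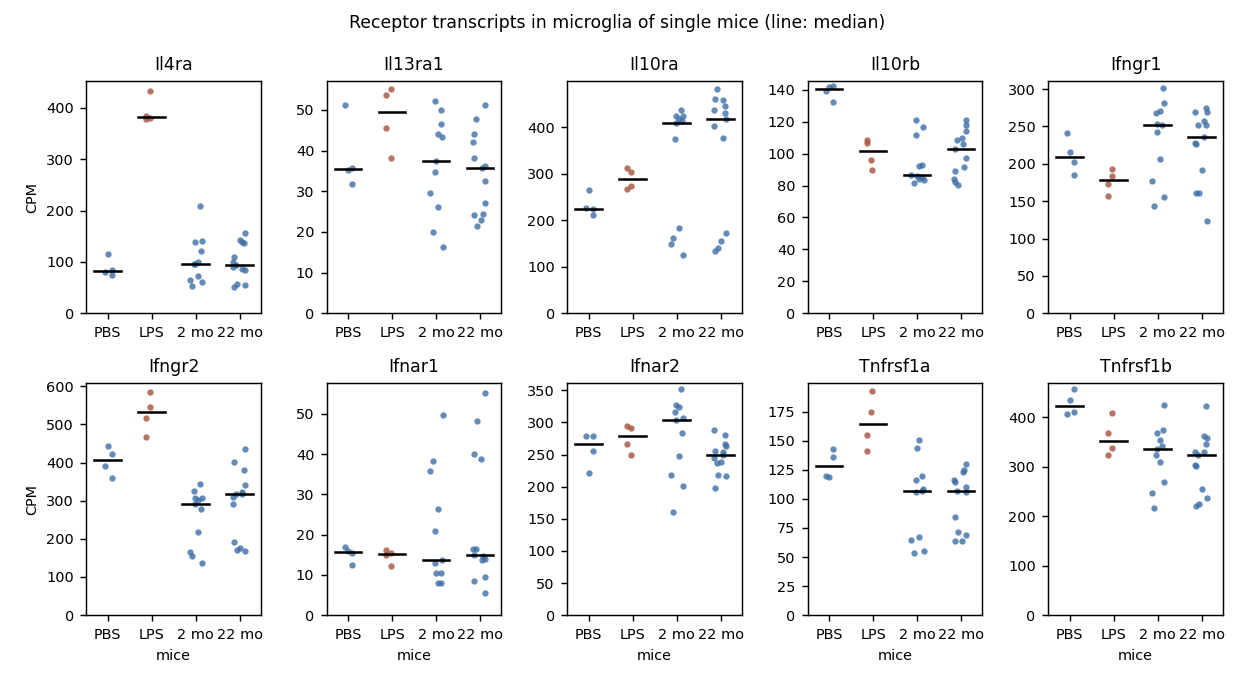
CPM of the 10 receptor genes in microglia of single mice (points, linear axes from 0) given PBS or LPS and of mice of 2 or 22 months, with the median as a line. Il4ra in the 4 LPS mice lies between 377.9 and 432.8 CPM, above all 4 PBS mice, while the 2 ages overlap in every gene.

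Between 22 and 2 months, 0 of 10 members were called by limma, where 3.97% of all genes were. At an unadjusted p under 0.05 there was 1, Ifnar2, at 160.8, 303.2 and 351.8 CPM at 2 months and 198.0, 249.3 and 288.0 CPM at 22 months (-0.16 ± 0.07, adjusted p = 0.176). The libraries had been made in 2 series, told by their numbers. In the larger series the Ifnar2 change was -0.28 (adjusted p = 0.00938, under 1.5-fold), and in the smaller it was 0.09 (adjusted p = 0.869). The series of 16 is the one listed with 4 weeks of vehicle. For Il10ra and Ifnar1 the series did not overlap: Il10ra was 126 to 182 CPM in all 8 mice of the smaller series and 375 to 481 CPM in all 16 of the larger, and Ifnar1 was 26.3 to 55.2 and 5.6 to 20.8 CPM. The series was a term of the fit. Il4ra was 53.7, 95.4 and 208.4 CPM at 2 months and 50.6, 93.9 and 156.2 CPM at 22 months (-0.08 ± 0.15). Of the 16 further pathway genes tested, 3 were higher, among them Usp18 (1.25) and Il2rg (1.19), and 0 lower. Oligodendrocyte markers summed to 189 to 1154 CPM at 2 months and 325 to 1083 CPM at 22 months, and astrocyte markers to 39.9 to 1094 and 152 to 406 CPM. Neutrophil markers summed to 132 to 1067 CPM at 2 months and 303 to 3664 CPM at 22 months, monocyte markers to 37.8 to 111 and 68.5 to 317 CPM, and T cell markers to 0.36 to 10.9 and 5.4 to 45.8 CPM. Il2rg is also a gene of lymphocytes, and the part of these cells in the values was not tested.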

How the data were processed

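The authors made 3′-end libraries, assigned reads with Salmon (0.7.1 in the submitters' processing notes, which list the build mm8) and deposited CPM per gene, for the cultures in a table and for the mice in another. Their methods name Ensembl transcripts and call the values TPM. Depth was estimated here by taking the most frequent non-zero value of a sample as 1 read. Counts were not rebuilt, and 1 CPM is about 1 read in the shallowest culture.

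Tests used limma 3.58.1 (trend) in R 4.3.3 on log2(CPM + 1), with Benjamini-Hochberg adjustment over all genes of a comparison. Genes entered with over 5 CPM in at least 4 samples, or 11 mice for age. A fit held all cultures of a time, the 4 h fit also the untreated 24 h cultures, and the age fit had library series as a term. The script was tested on simulated data. Groups followed the sample labels. The header of the mouse table lists a vehicle for all mice and was not followed.

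Cell type markers were 10 fixed lists. All members were named, with the most like genes by Pearson's r over condition means, and up to 4 genes of each further list per comparison, by size of change. A few genes that this rule names are not reported here. Members and lists were chosen with earlier results of these data known. Comparisons of further agents added to LPS at 4 and 24 h were chosen after values were seen. Alternatives were plate or pool in the model, pseudocounts of 0.5 and 5 CPM, no minimum, median-ratio scaling, a 2-fold threshold, an exact rank-sum test, leaving out replicates and leaving out cultures under 2 M reads. Tables used Python 3.11.15, pandas 2.3.3 and numpy 2.4.6.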

Additional observations from a re-analysis of the deposited data

Results flagged for a closer look

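The lowest or highest sample stood apart from its group in 18 of 260 sets of group and receptor gene, by the gap to its nearest neighbour as a share of the range. Chance sets apart about 1 in 20. In cultures at 24 h these were Ifngr2 under IFNg (116 CPM against 237 to 346, gap 0.651), Tnfrsf1a under IFNa (59.6 against 73.1 to 86.2, 0.552), Il4ra under TNFa (0.571 against 9.76 to 30.1, 0.645) and Il10rb under P3C (25.7 against 79.9 to 134, 0.683).

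At 72 h a single IFNg culture was lowest for both Il10ra (2.02 CPM against 100 to 174, gap 0.865) and Ifngr2 (14.3 against 96.6 to 273, 0.642). A single P3C culture was lowest for Ifngr2 (57.5 against 194 to 343, 0.681) and highest for Tnfrsf1b (683 against 426 to 445, 0.911). A single culture with LPS_lo and IL13 was lowest for Il10ra (14.7 against 46.8 to 71.4, 0.729) and Tnfrsf1a (14.4 against 61.4 to 98.6, 0.750). The others at 72 h were Tnfrsf1b under IL13 (454 against 176 to 230, 0.714), Il10ra under IL10 (15.9 against 35.5 to 52.2, 0.670), Il4ra under IFNa (5.24 against 20.4 to 43.7, 0.626), Tnfrsf1a under IFNa (19.7 against 81.5 to 124, 0.767), Il4ra under IFNb (14.5 against 31.6 to 34.8, 0.889), Ifngr1 under LPS_lo and IL4 (73.0 against 24.6 to 31.3, 0.780) and Il13ra1 under LPS_lo and TGFb (89.4 against 0 to 6.47, 0.554). In mice, Il4ra after LPS was highest in 1 animal (433 against 378 to 384, 0.883).

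The effect of a stimulus differed between 24 h and 72 h, by limma's test of the difference, in 7 cases. On the log2 scale, the effect at 72 h minus that at 24 h was 1.72 for Il4ra under IFNg, 1.38 for Il4ra under TNFa, 1.28 for Il4ra under P3C, -2.54 for Il13ra1 under TNFa, -0.94 for Ifnar2 under IL10, -1.67 for Tnfrsf1b under LPS_hi and -1.62 for Tnfrsf1b under LPS_lo. The adjusted p-values were 0.00284, 0.0362, 0.0418, 0.0199, 0.0216, 2.68e-07 and 0.000243 in that order. Both TNFa values rest on the 3 cultures at 72 h, and the times were grown on different plates and mostly different lots. With median-ratio scaling the P3C value was 0.98 (adjusted p = 0.17).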

How the results depend on the processing

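Of the single calls, 124 of 163 kept their call with culture plate in the model and 107 of 163 with library pool, 140 of 163 without the cultures under 2 M reads, and 147 of 172 with median-ratio scaling, and no value changed sign in these alternatives. No minimum on low values kept 152 of 172 calls, a pseudocount of 0.5 CPM 167 and of 5 CPM 161. Counts of called members moved by over 1.5 times as follows. With an exact rank-sum test and Bonferroni correction they were 26 at 24 h (from 76), 3 at 72 h (from 48), 9 at 4 h (from 21), 7 for the TLR ligands (from 31) and 0 for additions to LPS_lo, for direct contrasts and for own ligands at 24 h and at 72 h (from 6, 12, 3 and 1). With these group sizes the corrected test could reach 0.05 in none of the 7 additions and 7 direct contrasts, nor in 3 of 7 own-ligand comparisons at 72 h, TNFa among them, nor in 10 of 42 conditions at 72 h, so its zeros there say nothing of stability. A 2-fold minimum gave 41 at 24 h, 31 at 72 h, 15 for the TLR ligands, 1 for own ligands at 24 h and 0 for untreated cultures at 72 h against 24 h (from 1). For the latter the count was 0 with a pseudocount of 5 CPM or the lot of the 72 h cultures alone and 2 with no minimum change, which gave 3 for LPS in mice (from 1). Library pool in the model gave 3 for additions to LPS_lo. For own ligands at 72 h it was 0 without the cultures under 2 M reads and 0 to 1 when a replicate was left out. Tnfrsf1b under TNFa at 72 h ran from -2.41 to 0.11 when a replicate was left out and changed sign without replicate 2 (0.11), a group of 3 cultures. Leaving out a mouse kept the Il4ra call each time. No paired analysis was possible because the labels give the samples no replicate numbers, and those used follow accession order, while culture plate was fitted as a block, as given above. Depth limits low values such as those of Il13ra1, where a few CPM are a few reads in the shallowest cultures.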
